A study of Homo sapiens with 9 samples.

Results

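The genes described here are 10 immediate-early genes, namely EGR1, EGR2, EGR3, NR4A1, NR4A2, IER2, IER3, IER5, KLF6 and MYC, taken by their symbol from a table of 62710 gene identifiers. All 10 were in the table, each with 1 identifier. Their RNA was followed in wild-type HT-29 cells, an established human colorectal adenocarcinoma line, in 9 libraries of poly(A) RNA. Stimulation lasted 2.5 h, with ADP-heptose at 500 ng/mL in 3 libraries and flagellin at 500 ng/mL in 3 others, and the remaining 3 libraries came from non-stimulated cells. ADP-heptose is a sugar nucleotide that Gram-negative bacteria make on the way to lipopolysaccharide and that human cells sense through the kinase ALPK1, and flagellin is the subunit of the bacterial flagellum and the ligand of TLR5. The series is 1 cell line at 1 dose and 1 time, and in bulk RNA fewer cells that express a gene and less RNA per cell cannot be told apart.

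Immediate-early genes are switched on within minutes of a stimulus, without new protein synthesis, by transcription factors that are already in the cell, and many of their products are transcription factors themselves. Their transcripts are short-lived, so a level at one time is a balance of recent synthesis and decay. The EGR proteins are zinc finger transcription factors, the NR4A proteins are nuclear receptors that act without a known ligand, the IER proteins are small products named for this early induction, KLF6 is a zinc finger factor of the KLF family, and MYC is a growth regulator that binds DNA together with MAX.

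The libraries held 30770448 to 38304035 counts after flagellin, 35040844 to 37537705 without stimulation and 50054773 to 58272772 after ADP-heptose, and the mitochondrial share was 7.31% to 8.31%. Of the epithelial markers, KRT8, KRT18, KRT19, KRT20, EPCAM, CDH1 and VIL1 were abundant in all 9 libraries, while the intestinal factors CDX1 (0 to 12 counts) and CDX2 (17 to 48 counts) were close to absent. Markers of leukocytes, endothelium and fibroblasts were at or near 0 (PTPRC 0 to 2 counts, CD3E, CDH5, COL1A2 and DCN 0), other than COL1A1 (437 to 1019 counts) and ITGAM (23 to 59 counts after ADP-heptose, 0 to 8 in the other libraries). ADP-heptose replicate 3 stood apart from its group. Over 11821 genes, the SD of its log2 differences was 0.374 from replicate 1 and 0.38 from replicate 2, whereas those 2 libraries differed by 0.126 and pairs within the other groups by 0.161 to 0.197.

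ADP-heptose stimulation raised 9 of the 10 genes over the non-stimulated level, by 1.83-fold (NR4A2) to 11.3-fold (IER3), and 8 of them by at least 2-fold. Among all 17323 genes tested in this comparison, 5.65% were called higher, 2.78% were called higher and at least 2-fold, and 2.5% were called lower. MYC was the exception, with a log2 fold change of -0.15 that did not pass the test. Flagellin raised 1 of the 9 genes that could be tested, IER3, by 1.29-fold, against 0.835% of all 16775 genes tested (0.256% with at least 2-fold). No gene of the set was called lower after flagellin (0.0179% of all genes), by edgeR or by DESeq2. At an unadjusted p under 0.05 in edgeR, 0 were lower and 5 were higher (EGR1, EGR2, IER3, IER5 and MYC). Of all 16775 genes tested after flagellin, 1232 were under that unadjusted threshold, in either direction. EGR3 was too low to be tested there, and in the comparisons with ADP-heptose it passed the expression filter only through the ADP-heptose libraries. Against non-stimulated cells, EGR2 passed that filter only through the stimulated libraries. ADP-heptose against flagellin gave 9 of 10 genes higher, 8 of them by at least 2-fold, where 4.24% of all 17354 genes were called higher, 2% higher by at least 2-fold and 1.56% lower. A gene was called when the Benjamini-Hochberg adjusted p of edgeR's quasi-likelihood test, adjusted over all genes tested, was under 0.05.

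The same split appeared in the single libraries. For 9 of the 10 genes the lowest ADP-heptose library exceeded the highest non-stimulated one, which held for 15.5% of all genes tested, and for MYC every ADP-heptose library was lower, which held for 14.7%. Against flagellin, the same 9 genes were higher in every ADP-heptose library (14.2% of all genes) and MYC was lower in every one (12.9%). After flagellin, 6 of the 9 genes tested lay above the non-stimulated libraries without overlap (EGR1, EGR2, NR4A2, IER3, KLF6 and MYC; 7.71% of all genes), and none lay below (5.13% of all genes). NR4A1, IER2 and IER5 overlapped. The comparisons of both stimuli with non-stimulated cells share the same 3 control libraries.

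**Figure D1:**
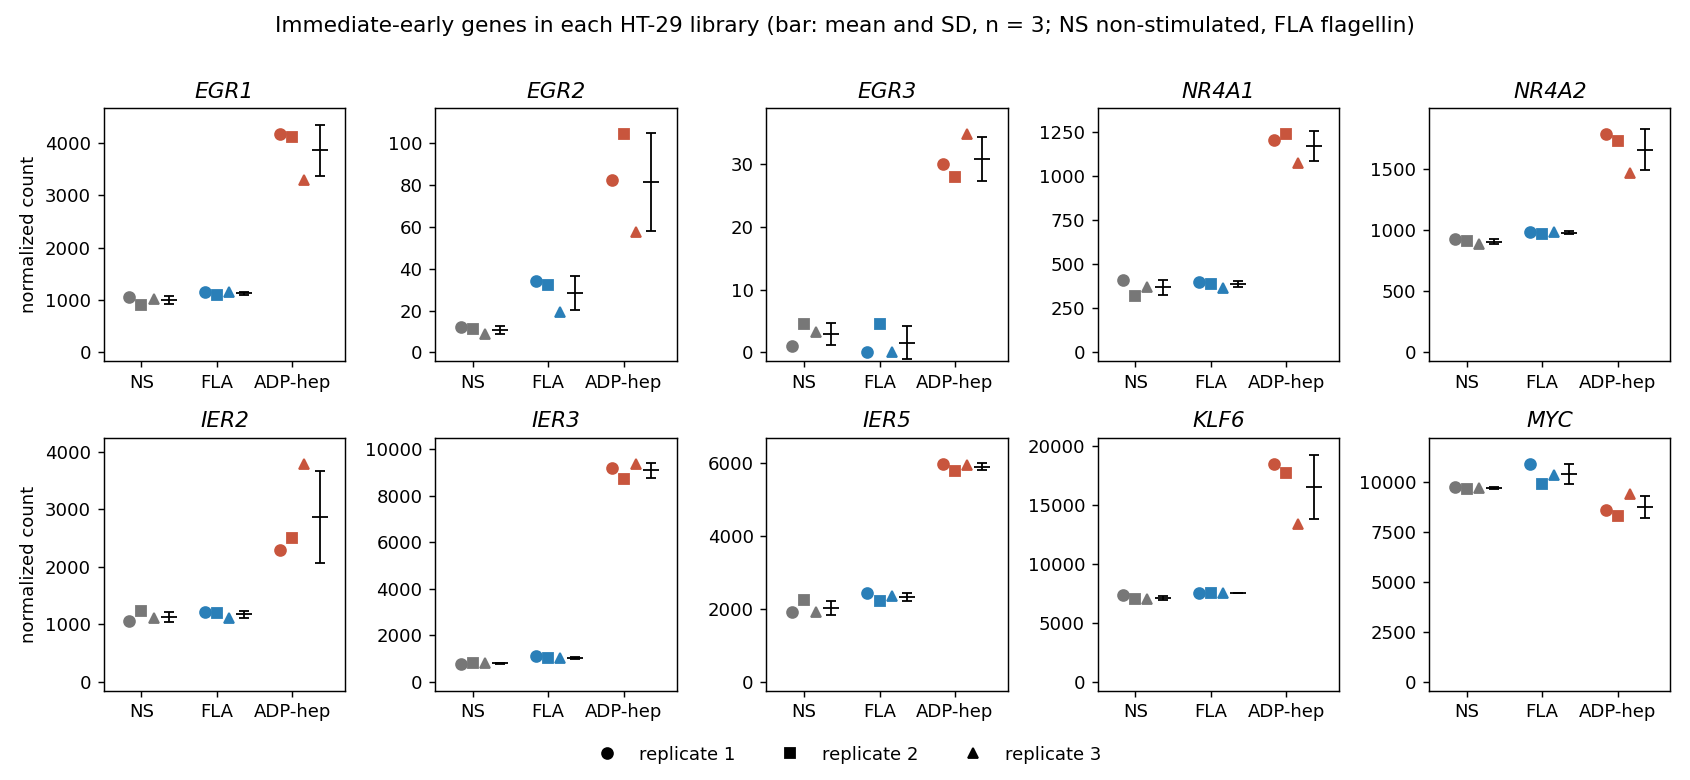
Normalized count (vertical axis, linear) of each gene in the 9 libraries, by group (NS, non-stimulated; FLA, flagellin; ADP-hep, ADP-heptose), with the mean and SD of the 3 libraries beside the points. In 9 panels the ADP-heptose points lie above all others, and in the MYC panel they lie between 8296 and 9358, below the rest.

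EGR1, the founding member of the EGR family (chromosome 5, 138465490 to 138469315, plus strand, GRCh38), had normalized counts of 1053, 914 and 1025 in the non-stimulated libraries, 1148, 1093 and 1147 after flagellin, and 4163, 4124 and 3300.4 after ADP-heptose. A normalized count is the count divided by the library's effective size and multiplied by the geometric mean effective size of all 9 libraries. The ADP-heptose libraries were far above the other 6, which lay close together, with the flagellin libraries just above the non-stimulated ones. The mean rose from 997.5 ± 73.3 to 3863 ± 487 (SD, n = 3), or by 1.95 on the log2 scale (standard error 0.12, edgeR adjusted p 9.561e-06). After flagellin the log2 fold change was 0.17 (95% confidence interval 0.02 to 0.32, adjusted p 0.56), and between the stimuli it was 1.77 (adjusted p 1.62e-05).

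EGR2, which is best known from Schwann cells and lymphocytes (chromosome 10, 62811996 to 62919900, minus strand), was present at a far lower level. Its normalized counts were 12.4, 11.2 and 8.65 without stimulation, 34.1, 32.04 and 19.1 after flagellin, and 82.5, 104 and 57.8 after ADP-heptose. The 3 groups did not overlap, and EGR2 was the one gene of the set for which the flagellin libraries sat well between the others. ADP-heptose raised it 7.53-fold over non-stimulated cells (log2 fold change 2.91, standard error 0.32, edgeR adjusted p 5.441e-04). With 12, 10 and 8 raw counts without stimulation, EGR2 passed the expression filter in this comparison only through the ADP-heptose libraries. In the comparison of flagellin with non-stimulated cells it passed only through the flagellin libraries. These 2 results were thus not independent of that filter. The flagellin log2 fold change of 1.39 was the largest of the 9 genes tested for flagellin, but at 8 to 33 raw counts a library its interval ran from 0.46 to 2.33 and its adjusted p was 0.2844. Between the stimuli the log2 fold change was 1.51 (adjusted p 0.02201), a call that held without ADP-heptose replicate 3 and was lost on leaving out any other library of the 2 groups (adjusted p 0.05836 to 0.09886, and 9.493e-05 without that replicate).

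RefSeq promoter windows on GRCh38.p14, from 250 bases before a transcription start to 50 after it, were at hand for 6 of the genes in 9 windows: EGR1, IER2, IER5 and KLF6 with 1 each, NR4A1 with 2 and EGR2 with 3. The CArG box, the element bound by serum response factor (SRF), was found by its consensus in 2 of the 9 windows. These were the window of EGR1 and that of start 3 of EGR2, while 1.29% of all 35116 windows held one. The bases before the start are shown for the 2 windows with a match, 5′ to 3′ on the gene's strand, with the CArG boxes in capitals. They lie at chr5:138465229-138465478 (plus strand) and, for start 3 of EGR2, at chr10:62816367-62816616 (minus strand).
EGR1: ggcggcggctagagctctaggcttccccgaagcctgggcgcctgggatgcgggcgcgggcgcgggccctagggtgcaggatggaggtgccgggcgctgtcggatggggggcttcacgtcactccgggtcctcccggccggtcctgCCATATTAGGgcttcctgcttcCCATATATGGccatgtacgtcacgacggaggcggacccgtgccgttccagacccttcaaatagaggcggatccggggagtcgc
EGR2: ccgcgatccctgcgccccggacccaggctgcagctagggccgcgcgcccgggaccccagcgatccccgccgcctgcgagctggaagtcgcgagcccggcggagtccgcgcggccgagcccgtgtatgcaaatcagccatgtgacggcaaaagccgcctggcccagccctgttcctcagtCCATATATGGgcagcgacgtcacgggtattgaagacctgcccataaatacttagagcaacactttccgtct
The boxes of EGR1 spanned bases -105 to -96 and -83 to -74 from the start, and the box of EGR2 bases -71 to -62.

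The other motifs were searched on both strands in the same 9 windows, which do not cover EGR3, NR4A2, IER3 or MYC. The EGR site GCGNGGGCG was in the windows of EGR1 (from base -198), KLF6 (from base -65) and start 2 of EGR2 (from base 8), and in 9.43% of all windows. The ETS site CCGGAA was in those of IER2, IER5 and start 1 of NR4A1 (17.25% of all windows), and the E-box CACGTG in those of KLF6 and start 2 of EGR2 (7.26%). None of the 9 windows held the NF-kB consensus (9.08% of all windows), the cyclic AMP response element TGACGTCA (1.85%), the AP-1 site TGANTCA (7.71%) or TATAAA (11.53%). In so few windows, finding none is near these shares. The GC content of the 9 windows ran from 53.3% to 77.3%, with a median of 58.7% over all windows. A match is a run of letters and no measure of binding, and a window without one says nothing of the factor.

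**Figure D2:**
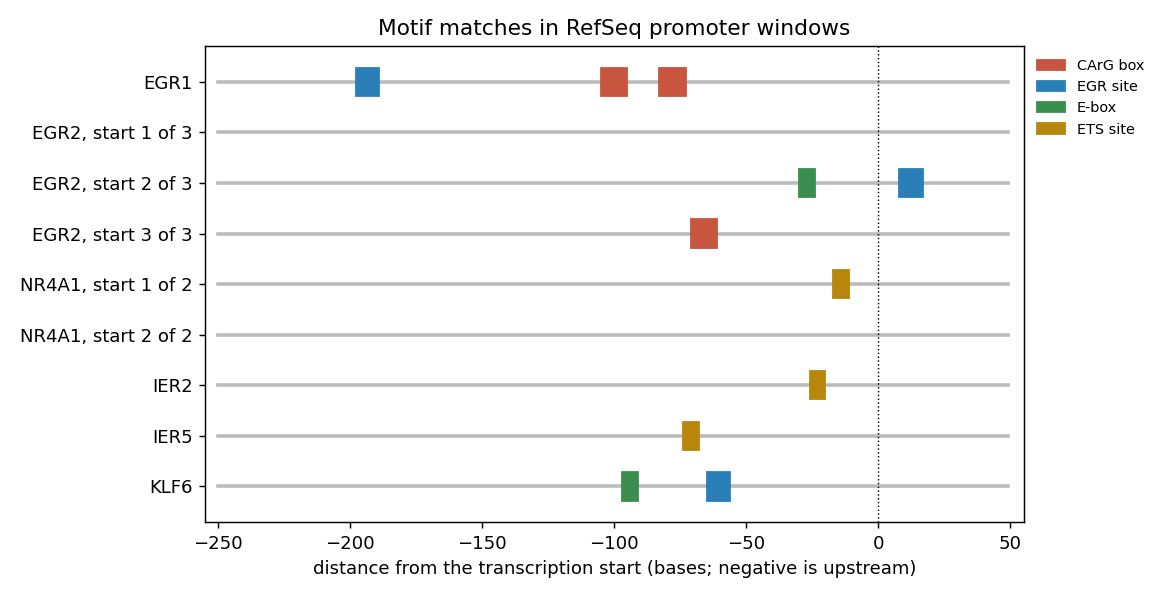
Motif matches along the 9 promoter windows of 6 genes, as distance in bases from the transcription start (horizontal axis, start at 0). Each grey line is a window, and the coloured blocks are the CArG boxes of EGR1 and EGR2, the EGR sites, the E-boxes and the ETS sites.

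EGR3, the least abundant of the 10 genes, went from 1, 4 and 3 raw counts in the non-stimulated libraries, and 0, 4 and 0 after flagellin, to 36, 39 and 39 after ADP-heptose. The ADP-heptose libraries were thus alone in having more than a few counts. EGR3 passed the expression filter only through these libraries, so its calls were not independent of that filter. With depth taken into account, the 114 counts after ADP-heptose against 8 without stimulation gave a ratio of 10.7 (exact binomial 95% interval 5.23 to 25.3, counting error only), and the edgeR estimate was 3.37 on the log2 scale (standard error 0.48, adjusted p 0.002332). In every library more genes had 2 counts (2107 to 2342) than had 1 (1177 to 1463), and more had 4 (1092 to 1166) than 3 (619 to 732), so the counts did not behave as independent single events. Taking every 2 counts as 1 widened the interval to 3.94 to 40.5. Against flagellin the ratio was 20.1 (7.63 to 75, or 5.31 to 170 with every 2 counts as 1). The edgeR adjusted p of 0.01093 for that comparison was 0.0537 without flagellin replicate 1 and 0.05526 without flagellin replicate 3. All 4 flagellin counts came from replicate 2, and without it the log2 fold change went from 4.23 to 8.08 (adjusted p 0.006897), a value with no flagellin counts behind it. Flagellin against non-stimulated cells gave a ratio of 0.531 (0.117 to 1.98), so a change was not detectable at this depth.

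NR4A1, also called Nur77 (chromosome 12, 52022832 to 52059507, plus strand), had normalized counts of 411, 321 and 371 without stimulation, 400.2, 389 and 366 after flagellin, and 1202, 1233.5 and 1073 after ADP-heptose. The flagellin libraries lay within the range of the non-stimulated ones, and all 3 ADP-heptose libraries were well above them. The rise was 3.18-fold, or 1.67 on the log2 scale (standard error 0.12, edgeR adjusted p 3.307e-05) over non-stimulated cells. Over flagellin it was 3.03-fold (adjusted p 1.615e-05), and flagellin alone gave a log2 fold change of 0.06 (95% confidence interval -0.17 to 0.29, adjusted p 0.9571).

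NR4A2, also called Nurr1 and known for its part in dopamine neurons (chromosome 2, 156324432 to 156342348, minus strand), changed least of the 9 genes that rose. Its normalized counts were 927, 909.9 and 883 without stimulation, 989, 969 and 984 after flagellin, and 1784, 1731 and 1465 after ADP-heptose. All 3 flagellin libraries were above the non-stimulated ones, with a log2 fold change of 0.11 (95% confidence interval -0.04 to 0.26, adjusted p 0.8512). ADP-heptose raised NR4A2 1.83-fold (log2 fold change 0.87, standard error 0.10, edgeR adjusted p 5.958e-04), and 1.69-fold over flagellin (log2 fold change 0.76, adjusted p 0.001655).

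The 3 IER genes differed in size of response. IER3, also called IEX-1, a regulator of cell survival (chromosome 6, 30743199 to 30744554, minus strand), had normalized counts of 777, 804 and 830.3 without stimulation, 1094, 1007 and 1027 after flagellin, and 9196.5, 8721 and 9359 after ADP-heptose. It gave the largest fold change of the set over non-stimulated cells, with a coefficient of variation of 3.6% among the ADP-heptose libraries. Its log2 change of 3.50 (standard error 0.08, edgeR adjusted p 2.266e-08) ranked 35 from the top among 12201 genes with a mean log2 CPM (counts scaled to library depth) of at least 1. Over flagellin it was 3.12 (adjusted p 8.282e-08). A gene on the opposite strand, IER3-AS1, overlaps its exons, and held 1 to 18 counts.

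IER3 was also the single gene of the set called after flagellin. All 3 flagellin libraries lay above the non-stimulated ones, with a mean of 1043 ± 45.6 against 803.8 ± 26.8 (SD, n = 3), which is 0.37 on the log2 scale (standard error 0.08, edgeR adjusted p 0.004524). The call was lost without flagellin replicate 1 (adjusted p 0.07703) and without non-stimulated replicate 1 (0.05504), and over all alternatives the log2 fold change stayed between 0.32 and 0.39 (adjusted p 0.00135 to 0.07703). The mean difference of 0.37 compares with 3.50 for ADP-heptose, and the difference between the stimuli themselves passed the test, as given above.

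IER5, whose product is known to bind phosphatase PP2A and heat-shock factor HSF1 (chromosome 1, 181088712 to 181092899, plus strand), had normalized counts of 1903, 2248 and 1923 without stimulation, 2443, 2224 and 2350.4 after flagellin, and 5971, 5793 and 5943 after ADP-heptose. The coefficient of variation among the ADP-heptose libraries was 1.6%, while 1 non-stimulated library reached into the flagellin range. The rise was 2.91-fold, or 1.54 in log2 (standard error 0.09, edgeR adjusted p 9.008e-06), and 1.33 over flagellin (adjusted p 1.052e-05). For flagellin the value was 0.20 (95% confidence interval 0.08 to 0.33, adjusted p 0.2018). Without non-stimulated replicate 2, the library that overlapped, it was 0.28 and passed the test (adjusted p 0.002854, 0.002854 to 1 over all alternatives).

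IER2, a nuclear protein (chromosome 19, 13150415 to 13154908, plus strand), was the most variable of the abundant genes after ADP-heptose. Its normalized counts were 1055, 1229.7 and 1119 without stimulation and 1213, 1196 and 1108 after flagellin, which overlap. After ADP-heptose they were 2300.4, 2507 and 3785, so replicate 3 was well above the other 2. The change over non-stimulated cells was 1.33 in log2 (standard error 0.18, edgeR adjusted p 0.001685) and 1.29 over flagellin (adjusted p 0.002426). Against the mean of replicates 1 and 2, replicate 3 was higher by 0.66 on the log2 scale. With sign kept, 97% of genes with a mean normalized count of at least 100 had a lower value. Relative to non-stimulated cells, the log2 level was 1.08 in replicates 1 and 2 and 1.74 in replicate 3. For flagellin the value was 0.04 (95% confidence interval -0.11 to 0.19, adjusted p 0.951).

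KLF6 (chromosome 10, 3775996 to 3785281, minus strand) had the highest normalized counts of the genes that rose. They were 7348, 7032 and 7018 without stimulation, 7521, 7567 and 7558 after flagellin, and 18454, 17669.8 and 13387 after ADP-heptose. The flagellin libraries, with a coefficient of variation of 0.3%, lay just above the non-stimulated ones. ADP-heptose raised KLF6 2.31-fold (log2 fold change 1.21, standard error 0.12, edgeR adjusted p 3.005e-04), and the difference from flagellin was 1.13 (adjusted p 5.625e-04). The flagellin log2 fold change was 0.08 (95% confidence interval -0.01 to 0.17, adjusted p 0.7935).

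**Figure D3:**
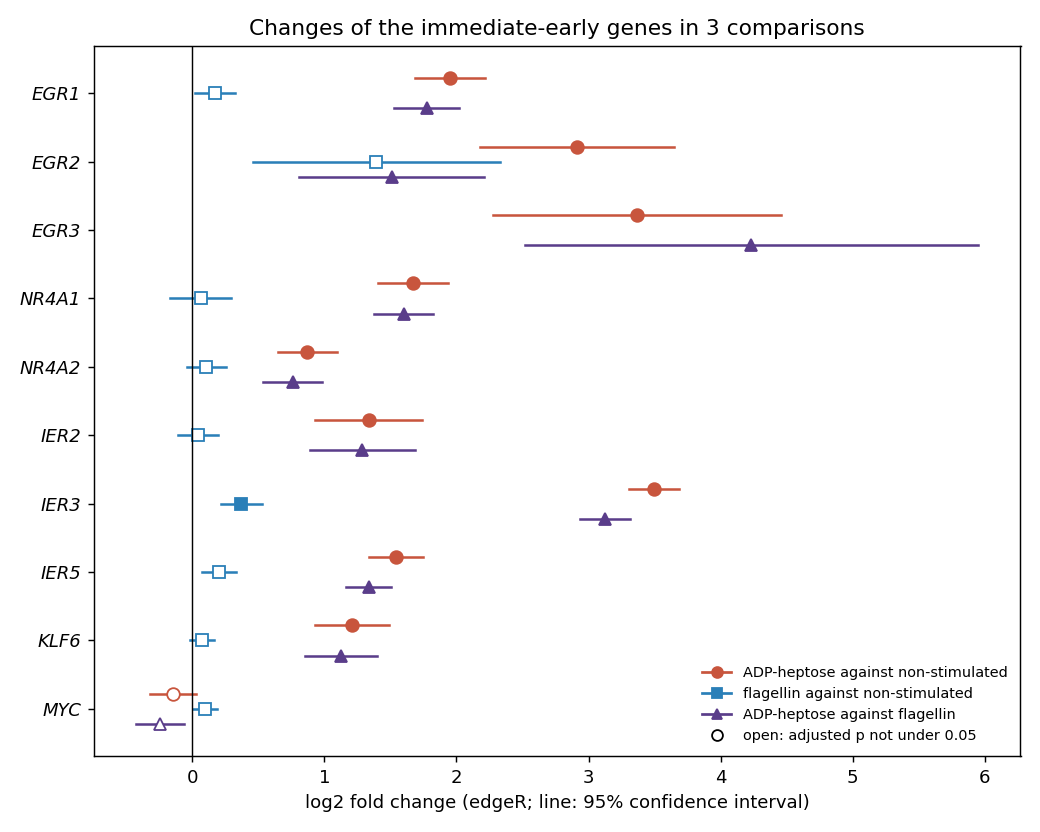
Log2 fold change (horizontal axis) of each gene in the 3 comparisons, with 95% confidence intervals derived from the edgeR F test and open symbols where the adjusted p was not under 0.05. The ADP-heptose values of 9 genes lie between 0.76 and 4.23, and of the flagellin values IER3 (0.37) is the one filled symbol.

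MYC was not called, and its estimate after ADP-heptose had the opposite direction. Its normalized counts were 9716, 9631 and 9676 without stimulation, 10876, 9886 and 10341 after flagellin, and 8597, 8296 and 9358 after ADP-heptose. The 3 groups did not overlap, with flagellin on top and ADP-heptose at the bottom, but none of the differences passed the test in edgeR or in DESeq2. Among all genes tested, 14.7% were lower in every ADP-heptose library than in the non-stimulated ones, and 12.9% than in the flagellin ones. After flagellin 7.71% were higher in every library. At an unadjusted p under 0.05, MYC was higher after flagellin and lower in the comparison of the stimuli. The log2 fold change was -0.15 after ADP-heptose (95% confidence interval -0.32 to 0.03, edgeR adjusted p 0.3349), 0.09 after flagellin (0.00 to 0.19, adjusted p 0.6556) and -0.25 between the stimuli (-0.43 to -0.06, adjusted p 0.1425). The upper bound of 0.03 for MYC lay below the lower bound of 0.65 for NR4A2, the smallest of the 9 rises after ADP-heptose.

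Whether MYC was called lower depended on 1 ADP-heptose library, the scaling and the offsets. Without ADP-heptose replicate 3 the log2 fold change was -0.19 against non-stimulated cells (adjusted p 0.002764, 0.002764 to 0.5873 over all alternatives) and -0.30 against flagellin (adjusted p 1.034e-05, 1.034e-05 to 0.4177 over all alternatives), and both passed the test. Scaling by library totals in place of TMM moved the log2 fold change of the median gene to -0.13 for ADP-heptose and to -0.11 against flagellin. On that scale MYC was at -0.28 (adjusted p 0.03683) and -0.37 (adjusted p 0.01849), lower than the median gene by about as much as with TMM. With offsets for gene length and GC content it was at -0.28 (adjusted p 0.004804) and -0.34 (adjusted p 0.001891), where the median gene was at -0.05 and -0.04. All 9 libraries in 1 fit gave -0.24 against flagellin (adjusted p 0.0463). More of all genes were called lower in these fits too. After ADP-heptose they went from 433 to 1253 without replicate 3, 880 with library totals and 1148 with offsets. Against flagellin they went from 270 to 1146, 782 with offsets, 482 with library totals and 481 with all 9 libraries. MYC lies on chromosome 8 (127735434 to 127741434, plus strand), as does EGR3 (22687659 to 22693302, minus strand).

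ADP-heptose replicate 3 also deviated for other genes of the set, in both directions. On the log2 scale, against the mean of replicates 1 and 2, it was lower for EGR2 (-0.69), KLF6 (-0.43), EGR1 (-0.33), NR4A2 (-0.26) and NR4A1 (-0.18), close to it for IER5 (0.02) and IER3 (0.06), and higher for MYC (0.15), EGR3 (0.26) and IER2 (0.66). Without this library all 9 genes remained called higher, against non-stimulated cells and against flagellin. Its part in the spread of the set was not tested further.

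**Figure D4:**
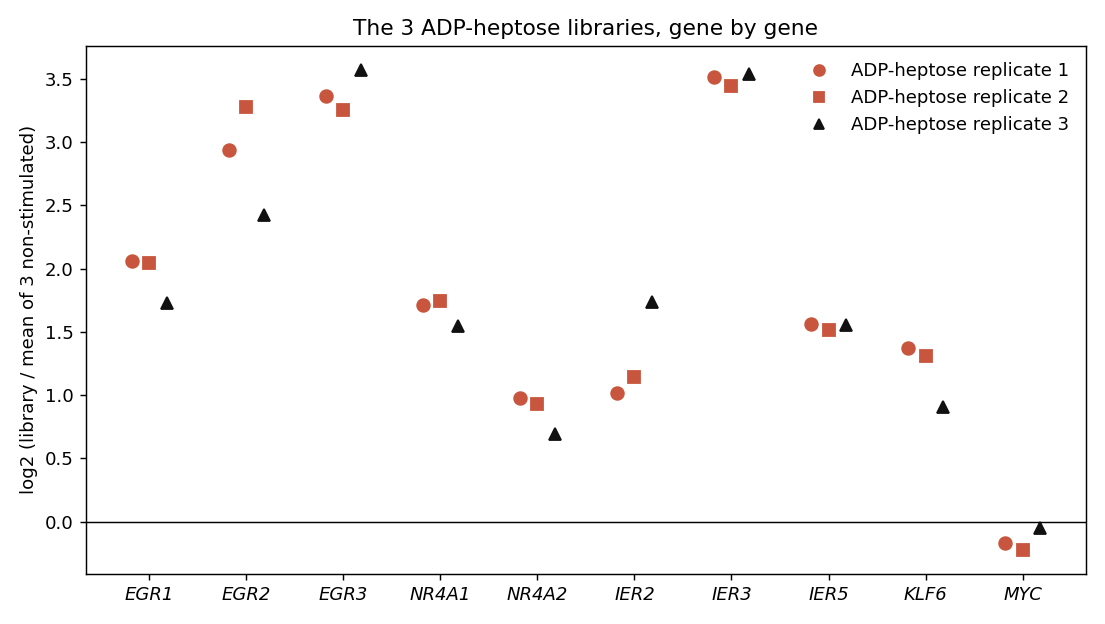
Log2 ratio (vertical axis) of each ADP-heptose library to the mean of the 3 non-stimulated libraries, gene by gene, with replicate 3 in black. Replicate 3 lies below replicates 1 and 2 for EGR1, EGR2, NR4A1, NR4A2 and KLF6, and above them for EGR3, IER2, IER3 and MYC.

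Levels of different genes can be set side by side only per length. Length was taken as the union of a gene's annotated exons, which for NR4A1 was 7295 bases against 4837 for its longest transcript. In CPM per kilobase of exon, MYC led in the non-stimulated libraries (79.9 ± 0.351, SD, n = 3), followed by KLF6 (28.8), IER3 (14.7), IER5 (12), IER2 (9.16), EGR1 (7.88), NR4A2 (5.67), NR4A1 (1.25), EGR2 (0.0723) and EGR3 (0.0149). No neighbours in this order overlapped. Flagellin left the order as it was, and IER2 (9.46) and EGR1 (8.92) then overlapped. After ADP-heptose, IER3 was first (166 ± 6.06), ahead of MYC (72.3) and KLF6 (66.7), which overlapped. IER5 (34.9), EGR1 (30.5) and IER2 (23.1) followed, with EGR1 now ahead of IER2 but overlapping it, then NR4A2 (10.4), NR4A1 (3.98), EGR2 (0.548) and EGR3 (0.158). EGR2 and EGR3 thus combined large fold changes with levels that, also after ADP-heptose, were below those of the other 8 genes in any group.

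For each of the 9 genes called in any comparison, the genes whose log2 CPM over the 9 libraries were most like it were sought among 12605 genes. The closest was MIDN for EGR1 (Pearson r 0.998), ATF3 for IER3 (0.999), BHLHE40 for NR4A1 (0.998), BTG3 for IER5 (0.997) and SOX9 for both NR4A2 (0.998) and KLF6 (0.9995). KLF6 was itself the second closest to NR4A2 (0.998). IER2, with its high value in ADP-heptose replicate 3, was closest to AKR1C1 (0.996), CTSC (0.994) and GARS1 (0.993). For EGR2 they were LOC389602, STYK1 and HDAC9 (0.985 to 0.988), and for EGR3 BTG2 (0.990) and 2 genes without a symbol. These values describe 9 points in 3 groups from shared libraries, in which any gene that moves with ADP-heptose comes out high.

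Other immediate-early genes were looked at in a list of 36, among them the FOS and JUN families, the dual-specificity phosphatases and the remaining EGR and NR4A members. Of all genes tested, 5.65% were called higher after ADP-heptose (2.78% by at least 2-fold) and 2.5% lower. After flagellin these shares were 0.835% higher and 0.0179% lower, and for ADP-heptose against flagellin 4.24% higher and 1.56% lower. ADP-heptose raised 25 of the 36 (22 by at least 2-fold) and lowered 2, with a median log2 fold change of 1.15 beside 1.61 for the 10 genes and 0.01 for all genes tested. The largest were the stress-induced factor ATF3 (4.02, edgeR adjusted p 1.12e-08), NR4A3 (3.39, adjusted p 0.01547), FOSB (2.91, adjusted p 2.102e-06) and the MAP kinase phosphatase DUSP1 (2.76, adjusted p 5.645e-07). NR4A3 rose from a mean normalized count of 3.71 to 38.89 and passed the expression filter only through the ADP-heptose libraries. The 2 that fell, named after their values were seen, were CCN2 (-0.56, adjusted p 0.01587) and the Notch target HES1 (-0.41, adjusted p 0.01524), and DESeq2 gave 3 lower. Without ADP-heptose replicate 3 there were 4 lower, with DUSP6 and ID1 added, and 26 higher, with SRF added. Over all genes that fit gave 1253 lower and 1988 higher, from 433 and 979. Flagellin raised 2 of 35, ATF3 (0.38, adjusted p 0.03685) and the kinase PLK2 (0.25, adjusted p 3.751e-04), with a median of 0.06 for the list, 0.11 for the 9 genes tested and -0.001 for all genes. Neither was called in edgeR when all 9 libraries were fitted together. Against flagellin, ADP-heptose gave 25 higher (20 by at least 2-fold) and none lower in edgeR or DESeq2 (2 at an unadjusted p under 0.05, and 3 called without ADP-heptose replicate 3), with a median of 1.14 beside 1.42 for the 10 genes.

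Partners and targets of the set were looked at in short lists. Of all genes tested, 5.65% were called higher and 2.5% lower after ADP-heptose, and 0.835% and 0.0179% after flagellin. Both EGR corepressors, NAB1 (log2 fold change 0.81, edgeR adjusted p 0.002574) and NAB2 (0.32, adjusted p 0.04799), rose after ADP-heptose. Of 6 listed EGR targets 5 rose, and the list median was 0.84. NAB2 is in this list too and is counted again among the 5. The largest rises were those of the prostaglandin E synthase PTGES (2.01, adjusted p 1.269e-04) and the stress cytokine GDF15 (1.58, adjusted p 4.329e-06). PTGES was also the one listed target that rose after flagellin (1.35, adjusted p 6.472e-05). None of the 5 SRF cofactors and neither of the 2 RXR partners of NR4A passed the test after ADP-heptose (0 of both lists at an unadjusted p under 0.05 and 0 by DESeq2). In lists this short, 0 called is near the share of all genes. Among 8 other SP and KLF factors KLF3 (0.63, adjusted p 0.005981) and KLF9 (1.04, adjusted p 0.0458) rose, with a list median of 0.10. Without ADP-heptose replicate 3, SPRY4, ELK1, KLF5 and KLF13 were called higher as well. In that fit 1988 of all genes were called higher, from 979.

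The partners and targets of MYC were listed too. After ADP-heptose 5.65% of all genes were called higher and 2.5% lower, and after flagellin 0.835% and 0.0179%. The counts called in these MYC lists were near those shares and are no result about the lists. Of 10 tested members of the MYC network, 1 passed the test after ADP-heptose, MXD1, which competes with MYC for MAX (log2 fold change 0.90, edgeR adjusted p 0.001312), and the list median was -0.12. None of 18 MYC targets passed in edgeR, with a median of 0.11 (2 higher and 1 lower at an unadjusted p under 0.05, and 1 higher by DESeq2). Without ADP-heptose replicate 3, MXD3 and MXI1 were called lower, ODC1 and RRP12 higher and POLR1B lower. Calls over all genes in that fit went from 979 to 1988 higher and from 433 to 1253 lower. Flagellin moved none of the genes of these MYC lists past the test in edgeR or DESeq2 (1 lower in each list at an unadjusted p under 0.05), and their medians were 0.01 and -0.03.

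Heat-shock genes respond to handling as well as to stress. The share of all genes called higher was 5.65% after ADP-heptose and 0.835% after flagellin. Of 5 listed, HSPA1A (log2 fold change 0.53, edgeR adjusted p 0.03003), HSPA1B (0.40, adjusted p 0.02174) and DNAJB1 (0.48, adjusted p 0.008532) were called after ADP-heptose. DESeq2 called 4 of the 5 higher, and 4 were higher at an unadjusted p under 0.05 in edgeR. Without ADP-heptose replicate 3, HSPA8 was added, in a fit where 1988 of all genes were called higher, from 979. None was called after flagellin by edgeR or DESeq2, and 0 at an unadjusted p under 0.05. Their summed level was 2530 to 2850 CPM after ADP-heptose, 2140 to 2190 after flagellin and 2080 to 2190 without stimulation. Their part in the changes of the immediate-early genes was not tested.

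**Figure D5:**
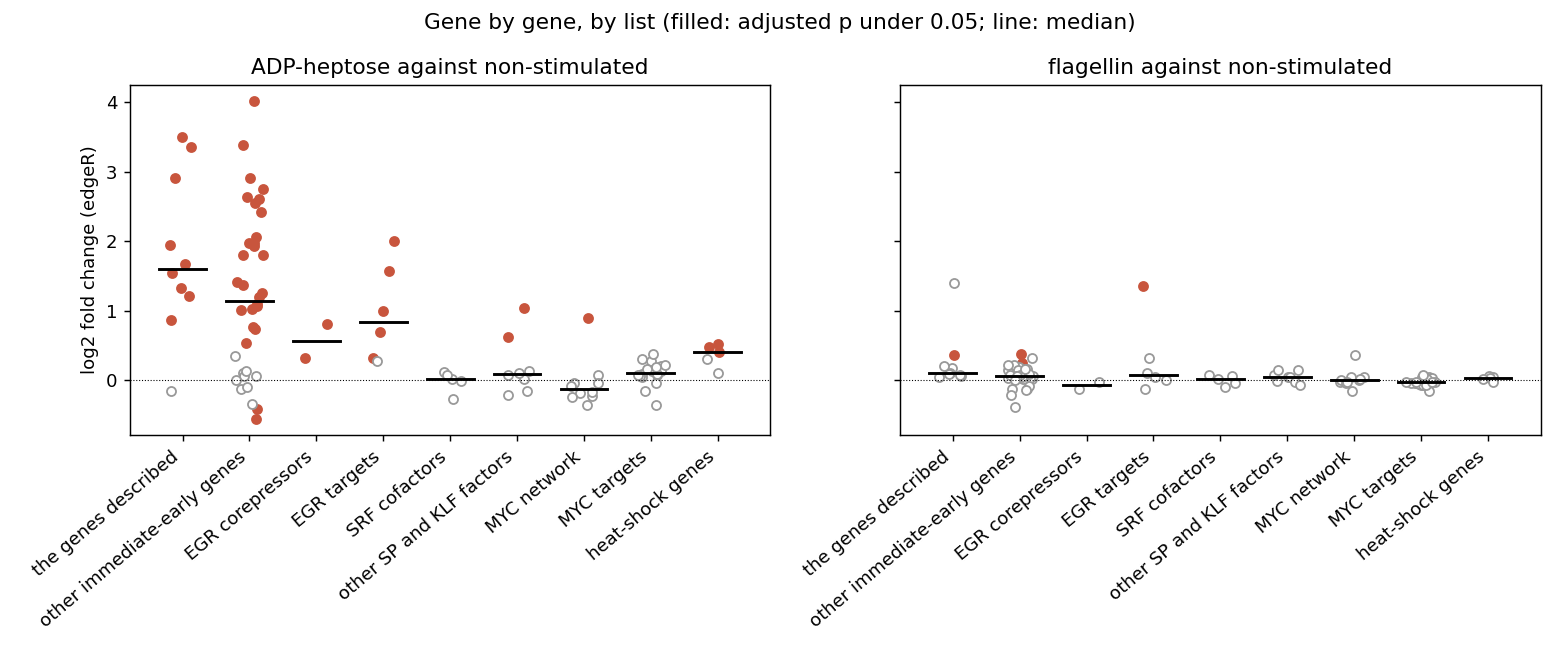
Log2 fold change (vertical axis) of each tested gene, by list, after ADP-heptose (left) and after flagellin (right), each against non-stimulated cells, with filled points for an adjusted p under 0.05 and a line at the list's median. After ADP-heptose the medians were 1.61 for the genes described and 1.15 for the other immediate-early genes, and after flagellin 0.11 and 0.06.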

How the data were processed

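Poly(A) RNA of 9 HT-29 libraries was sequenced as paired reads of 150 bases. According to the study, the authors aligned them to the human genome with HISAT2, and featureCounts gave read counts by gene, which the deposited table holds as raw counts, 1 column for each library. Versions, annotation and strandedness are not given in the sources used here. Of 62972 lines, 232 identifiers listed more than once with identical counts were kept once. GENCODE 29 gave positions and lengths for 92.9% of identifiers.

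Each comparison was a fit of its 6 libraries in edgeR 4.0.16 (R 4.3.3, limma 3.58.1) with TMM normalization, filterByExpr and the robust quasi-likelihood F test, tested on simulated data. Alternatives were DESeq2 1.42.0, other scalings and filters, all 9 libraries in 1 fit, a replicate block, offsets for length and GC content, and each library left out. The study describes the libraries as independent experiments, without saying which libraries share one. An exact permutation test of 3 against 3 cannot go below 0.1. All 10 genes were named. From the lists, genes called with at least 2-fold change were named, up to 4 per list and direction, and others after their values were seen. The genes and lists were chosen with earlier results of these data known. Figures were drawn with matplotlib 3.10.9 (Python 3.11.15).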

Additional observations from a re-analysis of the deposited data

How the results depend on the processing

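Of 435 values of single genes under 15 alternatives each, 412 kept their direction and their side of the threshold. Those that reversed were uncalled flagellin values: NR4A1 ran from -0.0257 (without non-stimulated replicate 2) to 0.1472 with a library left out, and IER2 from -0.0102 (without non-stimulated replicate 1) to 0.1041, with -0.0163 under offsets for length and GC and -0.0148 under the replicate block with these offsets. The 9 genes raised over non-stimulated cells were 9 under every library left out. Over flagellin they were 7 to 9, and after flagellin 0 to 2, or 0 with at least 2-fold. The number lower after ADP-heptose was 1 (MYC) with library totals, with offsets, with replicate block and offsets, and 0 to 1 with a library left out. Against flagellin the same held, and all 9 libraries in 1 fit gave 1. Where MYC was called lower, lower calls over all genes were 709 to 1253 after ADP-heptose (433 in the main fit). Against flagellin they were 481 to 1146 (270 in the main fit). Without ADP-heptose replicate 3, other immediate-early genes lower were 4 (3 against flagellin), relatives and partners, heat-shock genes included, higher 19 (20 against flagellin, from 12 and 10) and lower 3 (5 against flagellin); all 9 libraries in 1 fit gave 1 lower relative in each and 0 other immediate-early genes higher after flagellin. Without ADP-heptose replicate 3 more of all genes were called too. Higher calls over all genes went from 979 to 1988, and from 736 to 1897 against flagellin. Lower calls went from 433 to 1253, and from 270 to 1146 against flagellin. The cause was not tested.

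Same-numbered libraries did not deviate together (correlations -0.377 to 0.225), so the numbers were not taken as pairs. With the replicate block, genes called after ADP-heptose went from 979 higher and 433 lower to 698 and 208, and no call of the 10 genes changed. Library totals gave 720 and 880, leaving out ADP-heptose replicate 3 gave 1988 and 1253, offsets gave 1237 and 1148, and all 9 libraries in 1 fit gave 1302 and 770. Flagellin calls in that last fit were 64 higher and 2 lower, from 140 and 3. At 8 to 33 raw counts for EGR2 and 0 to 4 for EGR3 in the non-stimulated and flagellin libraries, counting error is part of their intervals.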
